A study of Mus musculus with 4 samples.

Results

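Gfap-high astrocytes were cells of the neonatal mouse brain that carried the counts of 2 astrocyte genes and at least 10 counts of Gfap, which encodes the glial filament protein GFAP. A segmented cell was taken as an astrocyte if it held 20 or more gene counts, 5 or more of Slc1a3 (the glutamate transporter GLAST) and 3 or more of Aqp4 (the water channel aquaporin-4). It also had to hold fewer than 3 counts of Csf1r, a microglial receptor, and fewer than 5 each of Pdgfra, which marks oligodendrocyte precursors, and of Cldn5, which marks endothelium. These gates were met by 64988 of the 863580 segmented cells, of which 794833 reached 20 counts. Of these, 17919 were Gfap-high, 31842 held 2 or fewer Gfap counts and are called Gfap-low astrocytes, and the rest lay between. The members were chosen by the measured counts of these 6 gate genes, so their levels are described below and not tested.

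Astrocytes take up glutamate and potassium around synapses, clothe blood vessels with end-feet and form the limiting layer under the brain surface. GFAP and vimentin build their intermediate filaments. In the mature brain GFAP is abundant in white matter, at the surface and around vessels, is scarce in much of the grey matter, and rises after injury. Early after birth, astrocytes of the cortex are still dividing and radial glia, which also make GFAP and vimentin, are turning into astrocytes.

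The brains came from mice at postnatal day 5, 24 h after lesion of the right-sided whiskers at day 4, and every section is from a lesioned animal. Coronal sections of 10 µm through the barrel cortex were measured by MERFISH, which reads barcoded RNA molecules of a gene panel in place over repeated rounds of imaging, here 140 genes and 40 blank barcodes that match no probe. Each of 4 coverslips carried 1 section of a wild-type mouse and 1 of a Cx3cl1(-/-) mouse, which lacks the chemokine fractalkine. The animals on coverslips 1 and 2 were males, those on coverslips 3 and 4 females. No column labels the genotype, hemisphere or brain region of a cell, and counts of Cx3cl1 were not used to assign genotype. These were therefore not assigned, the sides of the brain were not told apart, and each coverslip is a mixture of both genotypes. The replicate below is the coverslip, and p-values measure the spread between the 4 coverslips.

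The coverslips held between 33519204 and 76555311 gene counts, and the median cell that was kept had 161 to 273 counts. Blank barcodes made up 1.16% to 1.48% of all decoded counts. No kept cell had the same counts and volume on another coverslip. Squares with many faint cells held between 15 and 94 members per coverslip.

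Slc1a3 averaged 19.9 ± 1.75 counts per cell (SD, n = 4 coverslips) in Gfap-high and 16.6 ± 0.501 in Gfap-low astrocytes, and Aqp4 averaged 15.6 ± 2.39 against 8.75 ± 0.896. Astrocyte genes outside the gate bear on the label. Their sum over 5 genes was 94.1 ± 22.6 counts per Gfap-high cell, 66.9 ± 17.2 per Gfap-low cell and 11 ± 3.13 per kept cell outside the astrocyte gates. These 5 genes were not read by the gate, and the coverslips of the members lay far above those of the cells outside it. Markers of other cells were not at 0. The sum of 4 neuron genes was 8.57 ± 2.19 counts per Gfap-high cell, 23.1 ± 7.43 per Gfap-low cell and 77.2 ± 23.2 per cell outside the gates. The sum of 7 microglial genes was 1.41 ± 0.294, 1.12 ± 0.248 and 1.97 ± 0.380 in the same order. The mural gene Pdgfrb was highest in the members, with 1.45 ± 0.289 counts per Gfap-high cell, 0.735 ± 0.11 per Gfap-low cell and 0.586 ± 0.114 per cell outside the gates.

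Gfap itself ranged widely among the members. The lowest member had 10 counts by rule, the median 21, the highest 466, and the upper quartile began at 38. There were 8028 members with 10 to 19 counts, 5605 with 20 to 39 and 4286 with 40 or more. Members were also larger and richer in RNA. Their median volume was 958 ± 56.9 in the units of the files against 908 ± 45.3 in Gfap-low cells, and their median count over the 134 genes outside the gate was 210 ± 46.8 against 183 ± 45.9. In the matched cells compared below, mean volume was 963, 1060, 1032 and 999 in members of coverslips 1 to 4. It was 780, 891, 861 and 849 in their Gfap-low partners. Ungated counts per cell were 202, 179, 257 and 297 against 157, 146, 213 and 255. Counts per cell printed below, and the overlap of their ranges, are not scaled for this difference. A gate on raw counts can favour larger cells with more counts, and its part in these differences was not tested. The fitted gene differences below are scaled by TMM factors, which adjust the total of the ungated genes of each sum for its composition. Just inside the threshold 2247 cells with 10 or 11 Gfap counts held 15.7 ± 2.41 Vim counts per 1000 ungated counts, and just outside it 2929 cells with 8 or 9 held 15.1 ± 1.54.

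Gfap-high cells made up 27.1% ± 4.31 of the gated astrocytes (SD, n = 4). The share was 21.0% on coverslip 1, 27.4% on coverslip 2, 29.6% on coverslip 3 and 30.5% on coverslip 4. The order of the coverslips by share is also their order by median count per kept cell, which was 161, 162, 185 and 273; the part of depth in the share was not tested. Female coverslips averaged 30.1% and male ones 24.2%, and the ranges did not overlap. The exact permutation test, two-sided, gave p = 0.333, the smallest that 2 against 2 allows. By section the share ran from 20.6% to 35.4% with a median of 25.5% over 8 sections. On 4 of 4 coverslips the section with the lower median count had the lower share. Since each coverslip holds both genotypes and the genotype of a section was not assigned, genotype and section depth were not told apart.

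The members were unevenly placed. They lined the outer rim of the sections and filled a belt through the interior, and between the rim and the belt lay a zone where members were few. Squares of side 200 with at least 5 gated astrocytes numbered 5247. On average 33.9% ± 6.20 of them (SD, n = 4) held no member, while in 18.5% ± 4.11 members were 50% or more of the astrocytes. Among the 10 nearest astrocytes around a Gfap-high cell, 52.1% ± 4.03 were Gfap-high, and around a Gfap-low cell 12% ± 2.3. The 4 coverslips lay between 49.4% and 58.0% for the first and between 8.92% and 14.3% for the second, with no overlap. This is a description, since Gfap chose both classes.

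**Figure D1:**
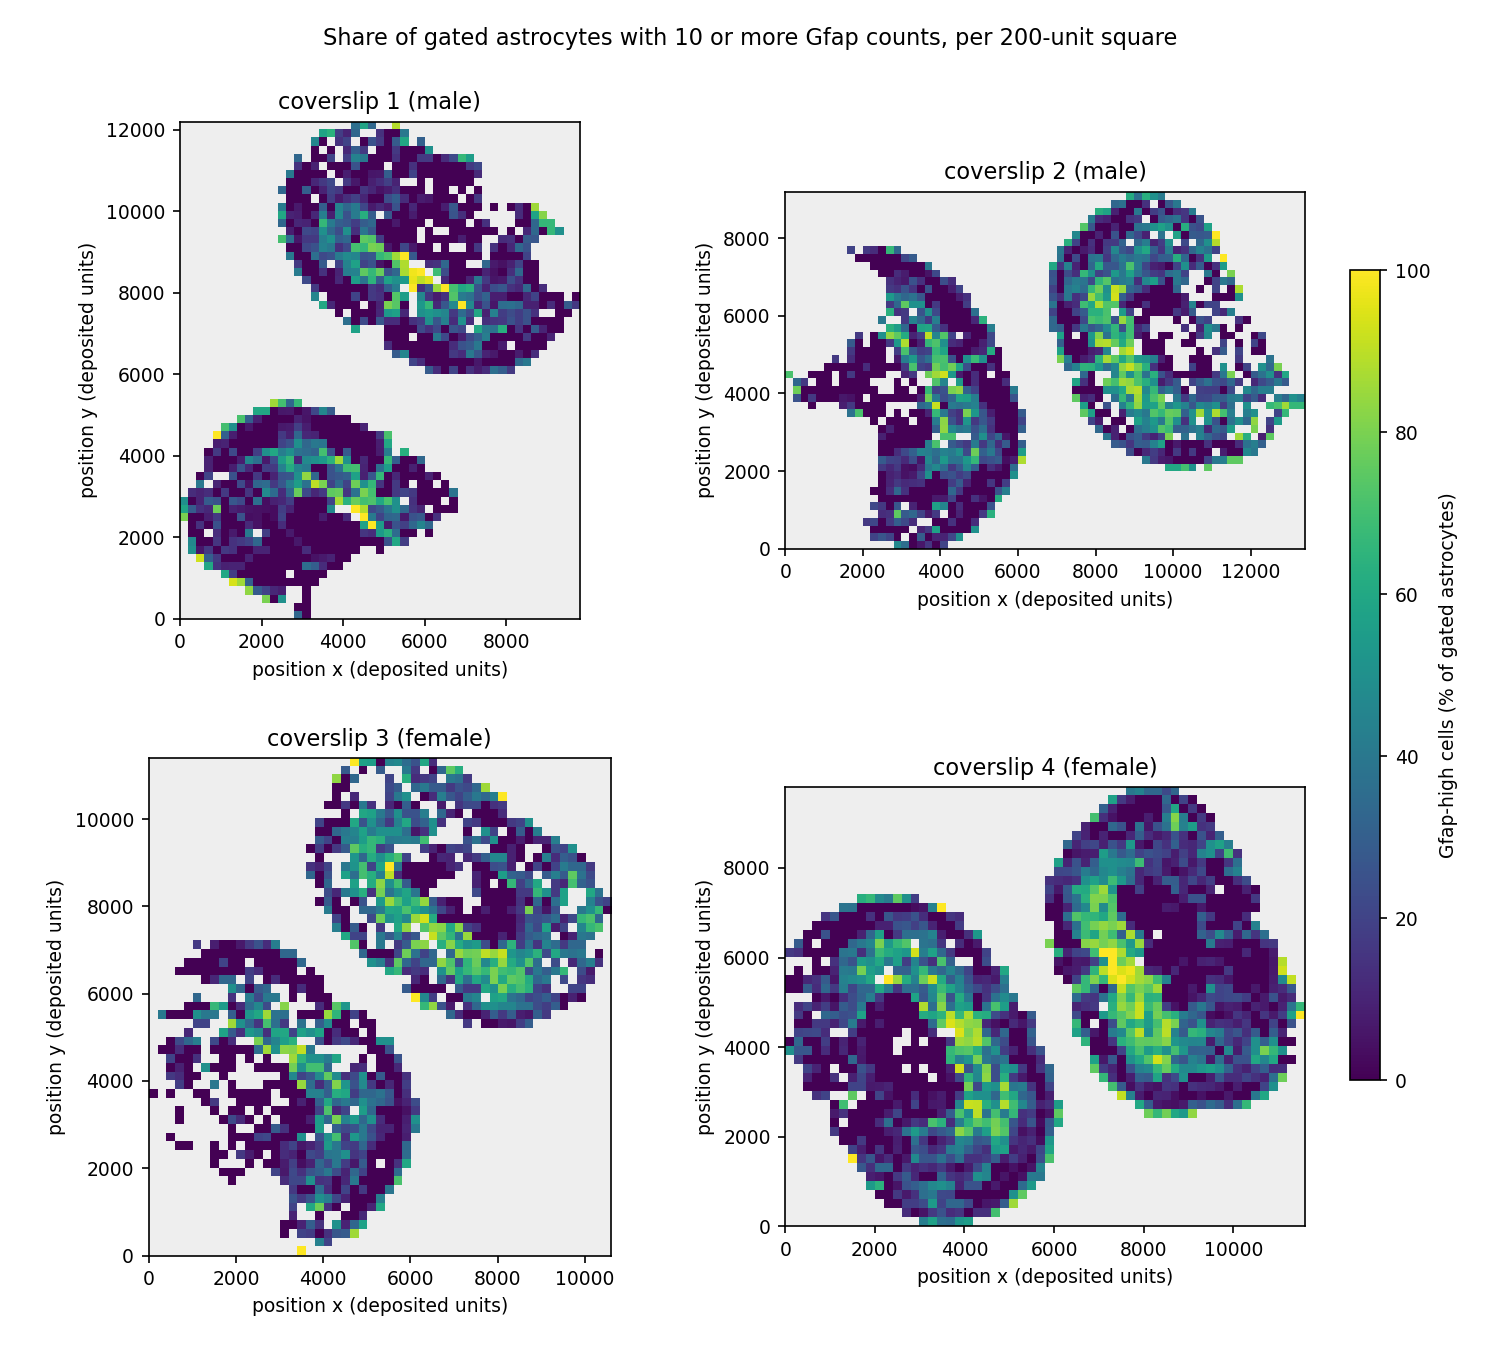
Share of gated astrocytes that were Gfap-high (colour, 0 to 100%) in squares of side 200 across the sections of each coverslip; both axes are positions in the units of the files, shifted to start at 0, and light squares had fewer than 5 gated astrocytes or no tissue. A bright rim at the outer edge and a bright interior belt are separated by dark squares without members on each of the 4 coverslips.

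The section edge was taken as the nearest gap of 4 or more adjoining empty squares of side 50. Gaps inside a section therefore count as edge as well as its outline, and the 2 were not told apart. Close to the section edge most astrocytes were members. Within 25 units of the edge the share was 58.4% ± 5.27 (SD, n = 4), from 52.3% to 64.7%, and at 25 to 50 units it was 55.2% ± 2.19. It was 13.1% ± 5.04 at 200 to 300 units and 31.1% ± 10.7 at 1000 to 2000 units, where coverslip 1 stood apart at 16.5%, while the lowest of the other 3 was 29.9%. Beyond 2000 units it was 7.76% ± 5.70, with as few as 20 astrocytes on 1 coverslip. Only 12.8% ± 2.87 of the members lay within 100 units of the edge, and 78.9% ± 4.88 lay more than 300 units inside. The median distance to the edge was 832 ± 246 units for members and 680 ± 90.4 for Gfap-low cells. Members were farther from the edge on 3 of 4 coverslips, and the exact permutation test, two-sided, gave p = 0.375.

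Vessels and border macrophages were marked by their genes: Cldn5 at 5 or more counts for vessel cells, and Mrc1 and Lyve1, macrophage receptors found on cells of the meninges and around vessels, at 3 or more each for border macrophages. Of astrocytes within 10 units of a vessel-marked cell, 52.1% ± 3.36 were Gfap-high, against 20.5% ± 3.54 at 75 to 100 units. The median distance to the nearest vessel-marked cell was 31.3, 34.6, 31.9 and 30.7 units for members and 43.5, 43.2, 41.9 and 38.7 for Gfap-low cells on coverslips 1 to 4. The ranges did not overlap, and the mean difference was -9.71 ± 1.85 units (SD, n = 4). The exact permutation test, two-sided, gave p = 0.125, the smallest that 4 coverslips allow.

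The gradient around vessels was shallower away from section edges and border-marked cells. More than 300 units from the edge and 200 from a border-marked cell, the share was 29.7% ± 5.54 within 10 units of a vessel-marked cell and 19.8% ± 3.90 at 75 to 100 units. With both classes matched by square, members were still nearer to vessel-marked cells on 4 of 4 coverslips, by -4.17 ± 1.08 units. The steepest gradient was around border-marked cells, where 87.9% ± 4.16 of astrocytes within 20 units were members, against 18.4% ± 3.34 beyond 800 units. The median distance to such a cell was 299 ± 44.3 units for members and 519 ± 41.2 for Gfap-low cells. Within matched squares these medians were 479 and 476.

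Microglia-marked cells were also nearer to members, at a median of 56.3 ± 6.07 units against 78.8 ± 9.13, on 4 of 4 coverslips. Cells marked by Pdgfra, the precursors of oligodendrocytes, lay at 28.0 ± 2.11 against 33.9 ± 2.76 units, again on 4 of 4. Both tests gave the smallest p the design allows, 0.125 by exact permutation. Within matched squares the differences were smaller, at -6.69 ± 1.58 units for microglia-marked and -2.38 ± 0.617 for Pdgfra-marked cells, still on 4 of 4. The number of kept cells within 50 units was 24 ± 2.83 around members and 24.3 ± 1.89 around Gfap-low cells: higher on 2 coverslips and lower on 2.

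**Figure D2:**
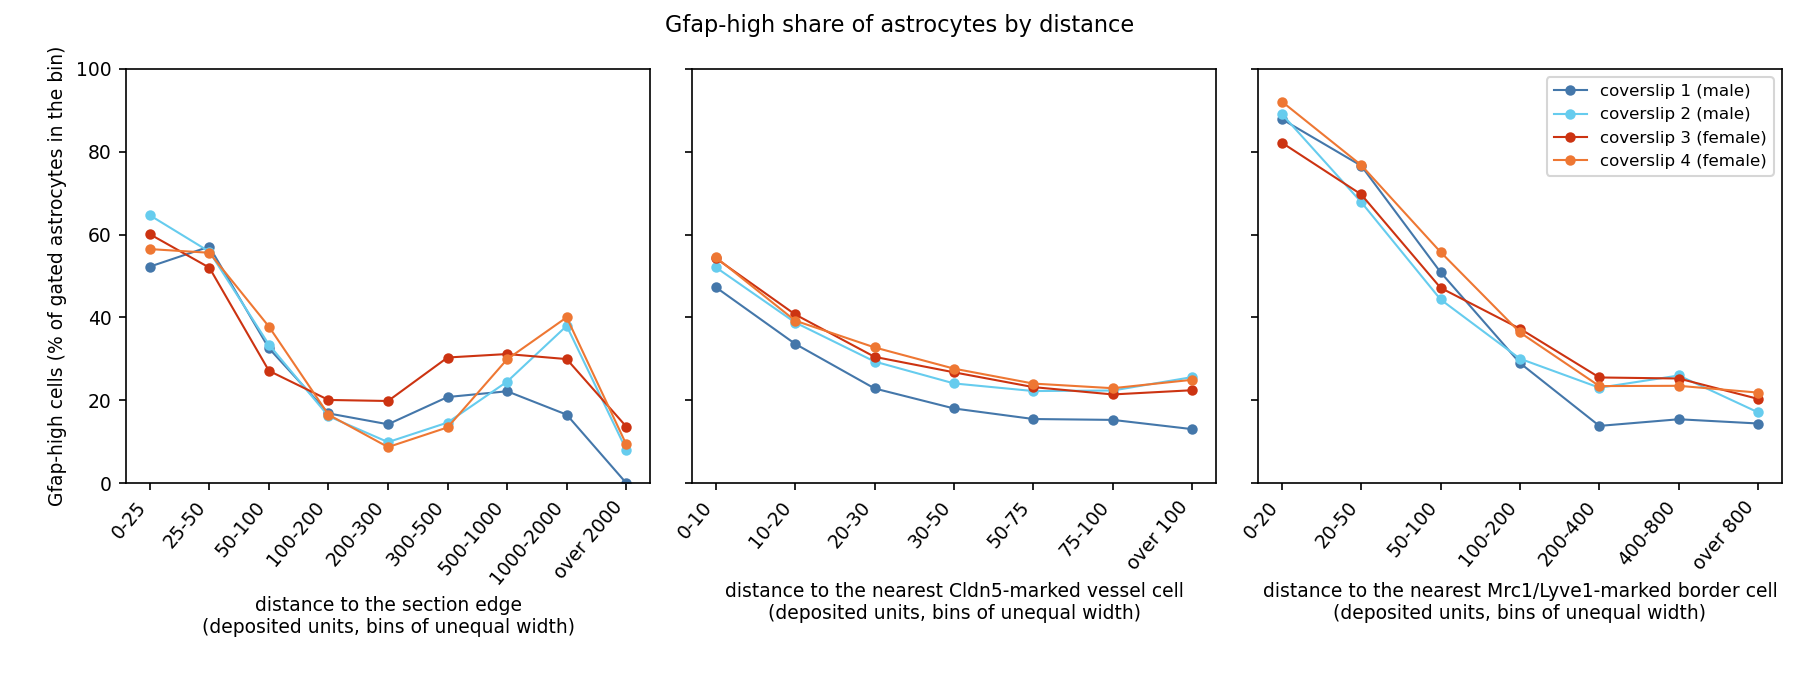
Share of gated astrocytes that were Gfap-high (vertical axis, %) by distance to the section edge, to the nearest vessel-marked cell and to the nearest border-marked cell (horizontal axes, bins of unequal width in the units of the files), with a line for each coverslip. The share starts at 82.2% or more within 20 units of border-marked cells, and against the edge it dips at 200 to 300 units and rises again inside.

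Because the classes occupy different places, genes were compared between members and Gfap-low astrocytes drawn in equal numbers from the same square of side 200. This used 7329 cells of each class from 3316 squares and left out 10590 members from squares without enough Gfap-low partners, so 40.9% of the members entered. A call needed a Benjamini-Hochberg adjusted p under 0.05 over all 134 ungated genes in edgeR's quasi-likelihood test with coverslip as a block. The count per cell in the class where the gene was higher also had to lie above every blank barcode on each coverslip. With matching, 33 genes were higher in the members (24.6% of those tested) and 41 were lower (30.6%). Over the 134 genes the median difference was 0.0048 on the log2 scale. The direction was the same on 4 of 4 coverslips for 95 genes (70.9%), and the counts per cell of the classes did not overlap for 18 (13.4%). Of the 74 calls, 42 were made in the same direction in each of 21 alternatives that could test the gene, 17 of them higher and 25 lower. A test against a 1.5-fold change called 3 higher and 9 lower genes.

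**Figure D3:**
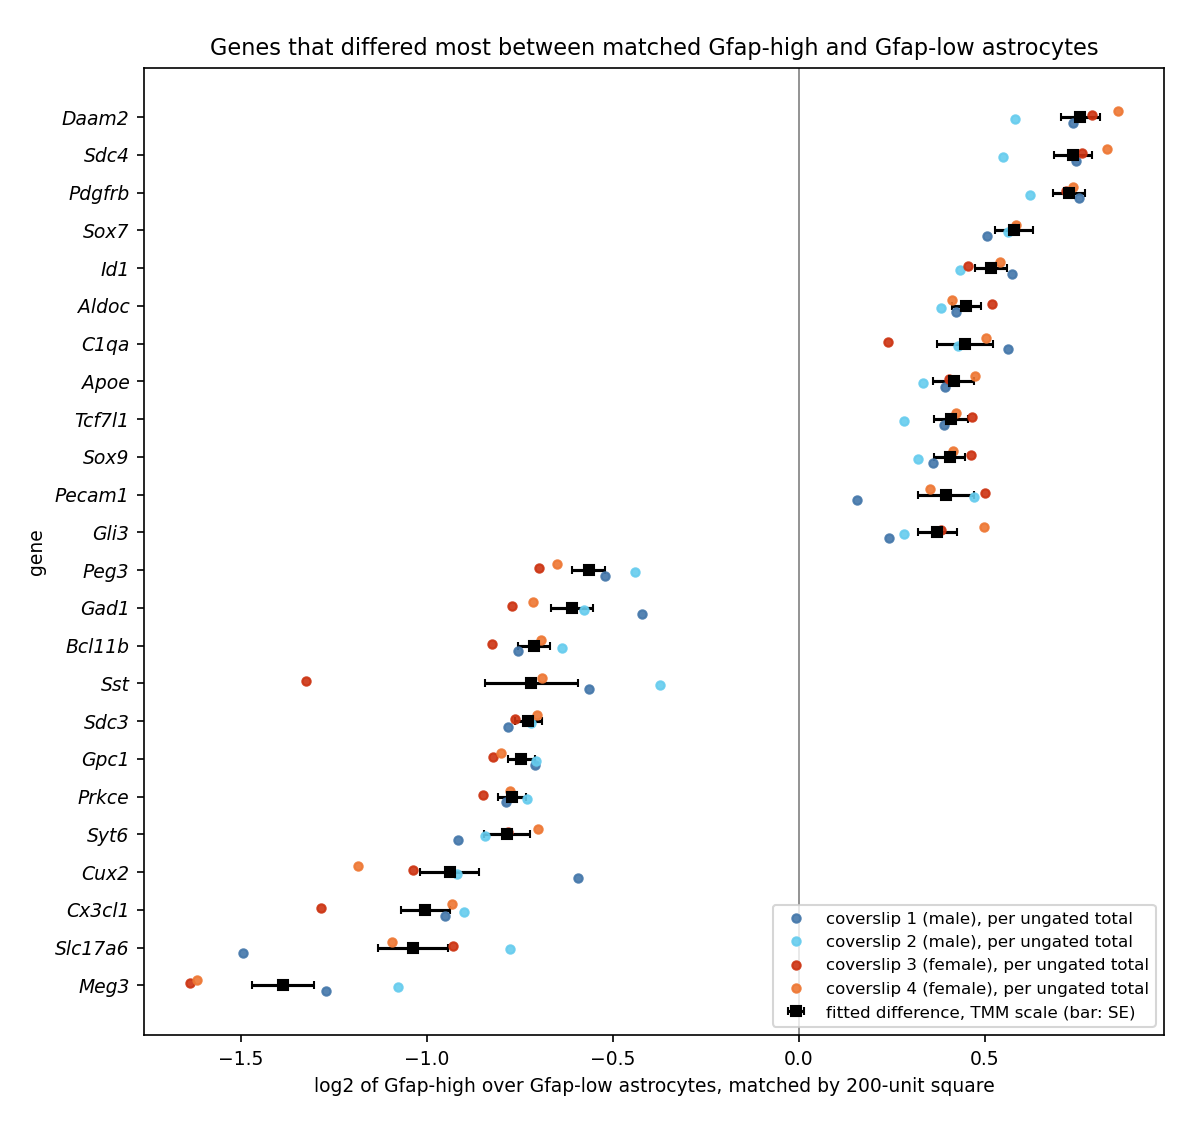
Log2 difference between Gfap-high and Gfap-low astrocytes matched by square (horizontal axis) for the 12 called genes with the largest difference in each direction; black squares and bars are the fitted differences with their standard errors, and coloured points are the 4 coverslips, scaled by the total of the ungated genes. Each coverslip lies on the same side of 0 as the fit for these 24 genes, and Sst has the widest spread.

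All 5 measured genes of mature astrocyte function were higher in the members, beside 24.6% of all tested genes. Apoe, the main lipid carrier of astrocytes, stood at 54.2, 38.8, 70.1 and 74.8 counts per cell in members of coverslips 1 to 4 and at 32.1, 25, 43.9 and 46.2 in their Gfap-low neighbours. The members were higher on each coverslip, though the ranges overlap, and the log2 difference was 0.42 ± 0.05 (SE, n = 4; edgeR adjusted p = 7.5e-05). Sox9, a transcription factor that starts and maintains the astrocyte programme, stood at 7.44, 7.73, 8.43 and 11.3 against 4.51, 5.03, 5.06 and 7.27. Its ranges did not overlap, and the difference was 0.41 ± 0.04 (edgeR adjusted p = 1.1e-05). Aldoc, an aldolase of glycolysis, differed by 0.45 ± 0.04, and Glul, the glutamine synthetase that recycles glutamate, by 0.30 ± 0.04. Aldh1l1, a folate enzyme used as a general astrocyte marker, differed by 0.19 ± 0.04 (edgeR adjusted p = 0.0014). The median of the 5 was 0.41, against 0.0048 for all genes. Without matching, Aldh1l1 was not called and its sign turned (-0.08 ± 0.03).

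Vim, vimentin, was the only gene of the reactive list on the panel, and its difference moved with how cells were matched or chosen by place. Matched by square it stood at 3.44, 2.92, 3.96 and 4.72 counts per cell in members and at 2.10, 2.07, 2.59 and 3.47 in Gfap-low cells. Members were higher on each coverslip, by 0.29 ± 0.04 (edgeR adjusted p = 1.0e-04). Over all cells, unmatched, Vim differed by 1.33 ± 0.10. Matching also left out 10590 members, so both place and the members compared changed, and the part of each was not tested. In squares of side 100 it differed by 0.06 ± 0.05 (edgeR adjusted p = 0.34). Among cells more than 50 units from vessel-marked and 100 units from border-marked cells, a choice made after the data had been seen, it differed by -0.01 ± 0.06 (edgeR adjusted p = 0.92). The call for Vim therefore held in squares of side 200 and not in these smaller or more distant sets.

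Several other genes behaved in this way. Emx2, a homeobox factor of the dorsal forebrain, differed by 0.87 ± 0.10 over all cells and by 0.07 ± 0.08 when matched (edgeR adjusted p = 0.43). Sfrp1, a secreted antagonist of Wnt ligands, differed by 1.00 ± 0.08 and then by -0.02 ± 0.05 (edgeR adjusted p = 0.68); it is named after its values were seen. Fzd10 went from -1.26 ± 0.10 to -0.21 ± 0.05 and Tcf7l2 from -1.09 ± 0.07 to -0.12 ± 0.04. In the other direction Gpc5, a glypican found on astrocytes, was -0.11 ± 0.05 over all cells and 0.30 ± 0.04 when matched. Its counts per cell were 3.09, 3.13, 3.87 and 4.11 in members against 2.05, 2.23, 2.5 and 2.77, without overlap. The astrocyte genes Daam2, Sdc4, Apoe and Sox9 were called with and without matching.

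**Figure D4:**
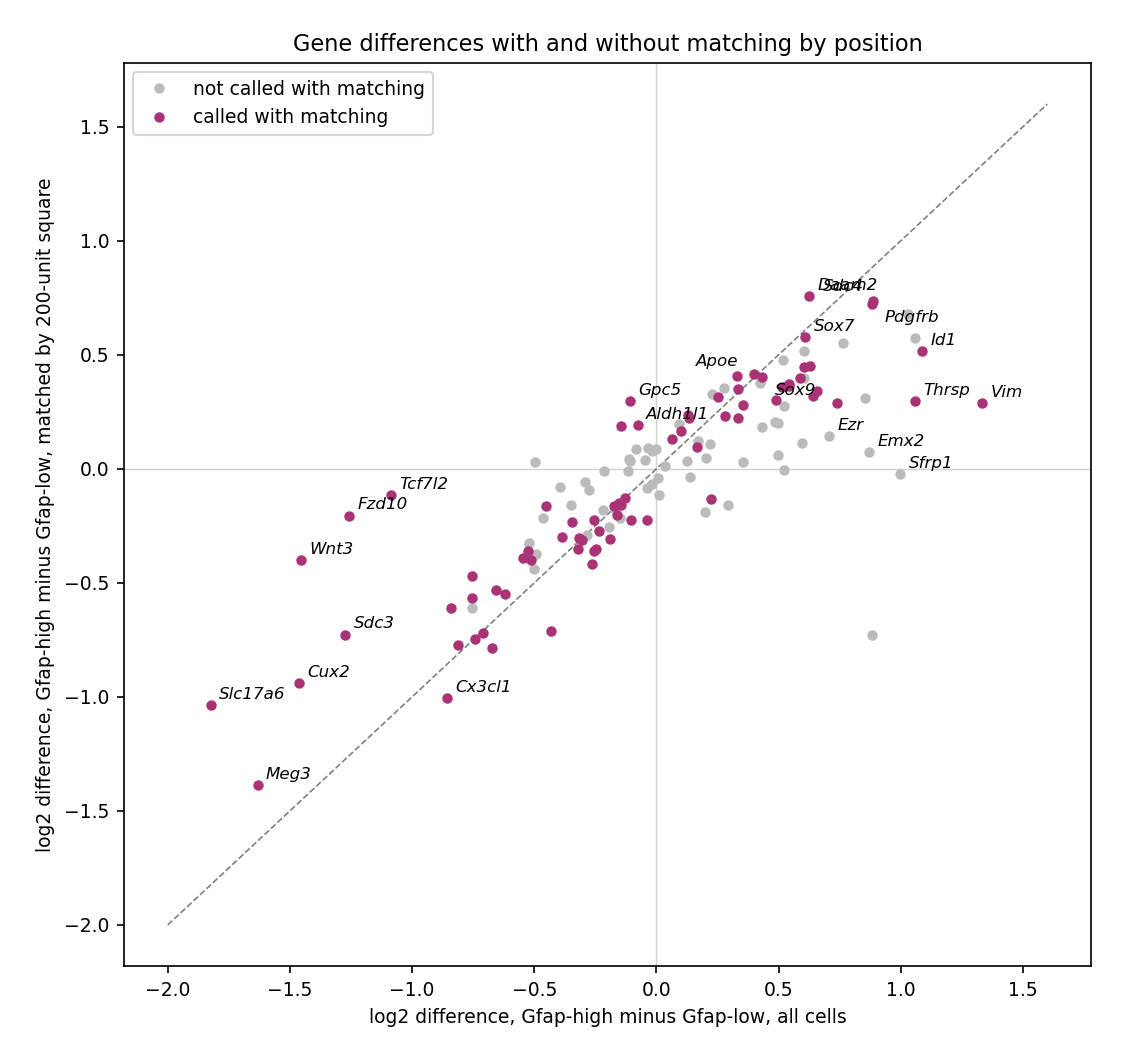
Log2 difference of each of the 134 ungated genes between Gfap-high and Gfap-low astrocytes over all cells (horizontal axis) and matched by square (vertical axis); purple points were called with matching, and the dashed line marks equal values. Vim, Emx2, Sfrp1, Thrsp, Tcf7l2, Fzd10 and Wnt3 lie far from the line toward 0, while Daam2 and Cx3cl1 lie beyond it.

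Among transcription factors of progenitors and patterning, 3 of 5 were higher in the members and none was lower. Over all genes 24.6% were higher and 30.6% lower. Id1, an inhibitor of basic helix-loop-helix factors and a common target of BMP signalling, stood at 1.30, 1.33, 1.63 and 2.42 counts per cell in members and at 0.678, 0.799, 0.985 and 1.43 in Gfap-low cells. It was higher on each coverslip, by 0.52 ± 0.04 (edgeR adjusted p = 4.3e-06), and by 0.34 ± 0.06 in squares of side 100. Gli3, an effector of Hedgehog signalling, differed by 0.37 ± 0.05 and its ranges did not overlap. Sox2, which maintains neural progenitors and persists in astrocytes, differed by 0.13 ± 0.04. Emx2 (0.07 ± 0.08) and Etv4, an ETS factor downstream of FGF receptors (-0.06 ± 0.04), were not called. The median of the list was 0.13.

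The largest upward differences among the called genes were in genes outside those lists. Daam2, a formin that links Dishevelled to the cytoskeleton, stood at 4.29, 4.86, 6.0 and 6.97 counts per cell in members and at 2.01, 2.64, 2.87 and 3.30 in matched Gfap-low cells. The lowest coverslip of the members was above the highest of the Gfap-low cells, and the difference was 0.76 ± 0.05 (edgeR adjusted p = 8.8e-07). Sdc4, syndecan-4, a transmembrane heparan sulfate proteoglycan of focal adhesions, stood at 3.89, 4.6, 5.15 and 4.56 against 1.81, 2.55, 2.51 and 2.20, again without overlap. It differed by 0.74 ± 0.05 (edgeR adjusted p = 1.1e-06). Daam2, Sdc4 and Pdgfrb were the 3 higher genes that passed the test against a 1.5-fold change.

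Pdgfrb, the PDGF receptor of pericytes and other mural cells, stood at 1.84, 1.11, 1.6 and 1.77 counts per cell in members and at 0.851, 0.588, 0.805 and 0.91 in Gfap-low cells. The ranges did not overlap, and it differed by 0.73 ± 0.04 (edgeR adjusted p = 4.2e-07). Among cells far from vessel- and border-marked cells it differed by 0.94 ± 0.07 there, a selection made after the data had been seen. Other genes of vessels and immune cells were also higher. Sox7, a transcription factor best known from endothelium, differed by 0.58 ± 0.05, and by 0.83 far from the marked cells, and was called in 21 of 21 alternatives. Pecam1, an endothelial adhesion protein, differed by 0.40 ± 0.08, and by 0.21 ± 0.13 far from them (not called). Adgra2, a co-receptor for Wnt7 ligands in brain vessels, differed by 0.36 ± 0.12 and turned to -0.25 ± 0.14 there (not called); Pecam1 and Adgra2 were each called in 16 of 21 alternatives. C1qa, a complement subunit made by microglia, was higher (0.45 ± 0.07), and it was called far from the marked cells as well (0.37 ± 0.13). It was the single gene called of 9 microglial and macrophage genes tested, beside 55.2% over all genes. Of the 9, 2 were above the blanks, and the median of the 9 was 0.35, against 0.0048 for all genes. Of the 3 vessel genes tested, 2 were higher and 1 lower, beside 24.6% and 30.6% over all genes. The lower was Cspg4 (-0.15 ± 0.06), which also marks the oligodendrocyte lineage and was called in 5 of 21 alternatives. The share of these counts that came from adjoining cells was not tested.

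Of 10 cell surface proteoglycans, 3 were higher and 4 lower, beside 24.6% and 30.6% over all genes, and the group itself was not tested. Gpc5, Gpc6 (0.23 ± 0.04) and Sdc4 were higher. Gpc1, a glypican abundant on axons, stood at 1.88, 1.46, 2.34 and 2.56 counts per cell in members against 2.40, 1.94, 3.43 and 3.82, and differed by -0.75 ± 0.04. Sdc3, the syndecan of neurites, differed by -0.73 ± 0.04, Sdc1 by -0.53 ± 0.06 and Gpc2 by -0.22 ± 0.07, the last called in 10 of 21 alternatives. Over all cells, Gpc1 and Sdc3 were highest outside the astrocyte gates, at 6.64 and 8.92 counts per cell. The part of adjoining cells in these counts was not tested. Of the 2 membrane scaffolds, Slc9a3r1, which ties membrane proteins to ezrin, was higher (0.31 ± 0.04). Ezr, ezrin itself, a protein of fine astrocyte processes, was not called (0.14 ± 0.06, edgeR adjusted p = 0.069), and was called higher in 15 of 21 alternatives, up to 0.71.

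The panel was rich in the Wnt pathway, in which secreted Wnt proteins bind Frizzled receptors and LRP co-receptors and release beta-catenin from a destruction complex, so that it can join TCF and LEF factors on DNA. Of 19 ligand and secretion genes, 1 was higher and 3 were lower, with a median of -0.18, beside 24.6% and 30.6% over all genes. Only 7 of the 19 were above the blanks. Wnt5a, a ligand of the branch without beta-catenin, was higher: 0.441, 0.377, 0.511 and 0.578 counts per cell in members against 0.270, 0.264, 0.321 and 0.383 in Gfap-low cells. Each coverslip was higher, by 0.35 ± 0.06 overall (edgeR adjusted p = 4.6e-04). Wnt7b (-0.16 ± 0.04), Wnt3 (-0.40 ± 0.08) and Porcn, the enzyme that lipidates Wnts (-0.35 ± 0.06), were lower.

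Of 19 receptors and cofactors, 8 were higher and 3 lower, with a median of 0.17; over all genes 24.6% were higher and 30.6% lower, and the group itself was not tested. The co-receptor Lrp5 stood at 1.31, 1.18, 1.53 and 1.54 counts per cell in members against 0.821, 0.803, 1.03 and 1.03, without overlap, and differed by 0.32 ± 0.04 (edgeR adjusted p = 7.5e-05). Fzd5 (0.36 ± 0.07), Fzd1 (0.29 ± 0.05), Fzd4 (0.24 ± 0.08), Fzd8 (0.22 ± 0.05), Fzd2 (0.17 ± 0.05), Ror2 (0.22 ± 0.07) and Adgra2 were the others that were higher. Fzd3 (-0.31 ± 0.04), Fzd10 (-0.21 ± 0.05) and Ryk (-0.16 ± 0.04) were lower. Fzd4 was called in 14 of 21 alternatives and Ror2 in 17 of 21.

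Of 19 pathway genes inside the cell, 4 were higher and 13 lower, with a median of -0.22, beside the same shares over all genes and again without a test of the group. The higher genes were Daam2 and the DNA-binding factors Tcf7l1 (0.41 ± 0.05), Tcf7 (0.34 ± 0.07) and Lef1 (0.28 ± 0.08). Beta-catenin (Ctnnb1, -0.36 ± 0.04) and genes of its destruction complex, Apc (-0.36 ± 0.03), Apc2 (-0.23 ± 0.03), Gsk3b (-0.39 ± 0.03) and Csnk1a1 (-0.31 ± 0.03), were lower. Prkce, a protein kinase C, was lowest of the group at -0.77 ± 0.04. These are differences on the TMM scale. In counts per cell Ctnnb1 stood at 2.23, 2.25, 3.17 and 3.82 in members and at 2.45, 2.29, 3.19 and 4.29 in Gfap-low cells, and Csnk1a1 at 1.81, 1.97, 2.61 and 2.86 against 1.83, 1.97, 2.68 and 3.05. Prkce was lower in counts per cell as well, at 0.876, 0.863, 1.12 and 1.49 against 1.18, 1.16, 1.68 and 2.19. Over all cells, unmatched, Ctnnb1 averaged 5.05 counts per cell outside the astrocyte gates, 3.19 in Gfap-low cells and 2.85 in members. Apc, Apc2, Gsk3b, Csnk1a1 and Prkce ranked in the same order. Daam2 (0.487, 3.19 and 5.23) and Tcf7l1 ran the other way, and Tcf7 and Lef1 were lowest in Gfap-low cells. How far counts of these genes came from adjoining cells was not tested. Of 7 antagonists, Sfrp2 alone was lower (-0.47 ± 0.07) and none was higher, beside 30.6% and 24.6% over all genes. Only 3 were above the blanks.

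Neuronal transcripts were lower in the members. Of 14 neuron genes, 11 were lower, none was higher and the median was -0.66, beside 30.6% lower and 24.6% higher over all genes. Meg3, a long non-coding RNA abundant in neurons, stood at 7.02, 6.54, 8.39 and 9.78 counts per cell in members and at 13.2, 11.2, 21.6 and 25.7 in matched Gfap-low cells. The ranges did not overlap, and the difference was -1.39 ± 0.08 (edgeR adjusted p = 4.2e-07). Slc17a6, the vesicular glutamate transporter VGLUT2 of thalamic and other neurons, differed by -1.04 ± 0.10. Genes of cortical layers were lower too: Cux2 of the upper layers by -0.94 ± 0.08, Syt6 of layer 6 by -0.78 ± 0.06 and Bcl11b of deep-layer neurons by -0.71 ± 0.04. The inhibitory genes Gad1 (-0.61 ± 0.06), Gad2 (-0.55 ± 0.05) and Sst (-0.72 ± 0.12) followed. Cx3cl1, a neuronal chemokine that 1 section of each coverslip lacks by genotype, differed by -1.0 ± 0.07. Summed over the 4 neuron markers, matched members held 10.2 ± 2.04 counts and matched Gfap-low cells 20.8 ± 7.90, against 77.2 in cells outside the gates. How far these counts came from adjoining neurons was not tested. With cells of 2 or more counts of Gad1, Gad2, Slc17a6 or Mrc1 or 3 or more of Pdgfrb left out, Meg3 differed by -1.31, and 31 genes were higher and 37 lower of 129 tested.

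Levels also ran with Gfap across the whole range of astrocytes, as shown by counts per 1000 ungated counts in 6 bins of Gfap. The genes for this description were chosen after their values were seen, and position was not matched. Vim went from 9.0 ± 0.902 at 0 to 2 Gfap counts to 16.9 ± 1.75 at 10 to 19 and 36.1 ± 8.77 at 40 or more. Id1 went from 3.72 ± 0.342 to 11 ± 1.12 and Sdc4 from 10.8 ± 2.37 to 24.2 ± 5.2 between the end bins. Meg3 went from 91.9 ± 6.54 to 21.7 ± 2.28. Other genes peaked among moderate members. Sfrp1 stood at 2.37 ± 0.23 in the lowest bin, at 5.76 ± 0.736 with 10 to 19 counts and at 2.8 ± 0.65 with 40 or more. Pdgfrb stood at 3.58 ± 0.741, 7.06 ± 1.59 and 5.16 ± 0.139 in the same bins. Aldh1l1 stayed between 24.3 and 26.0 throughout. Median volume was 904 in the lowest bin and 957 in the highest.

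**Figure D5:**
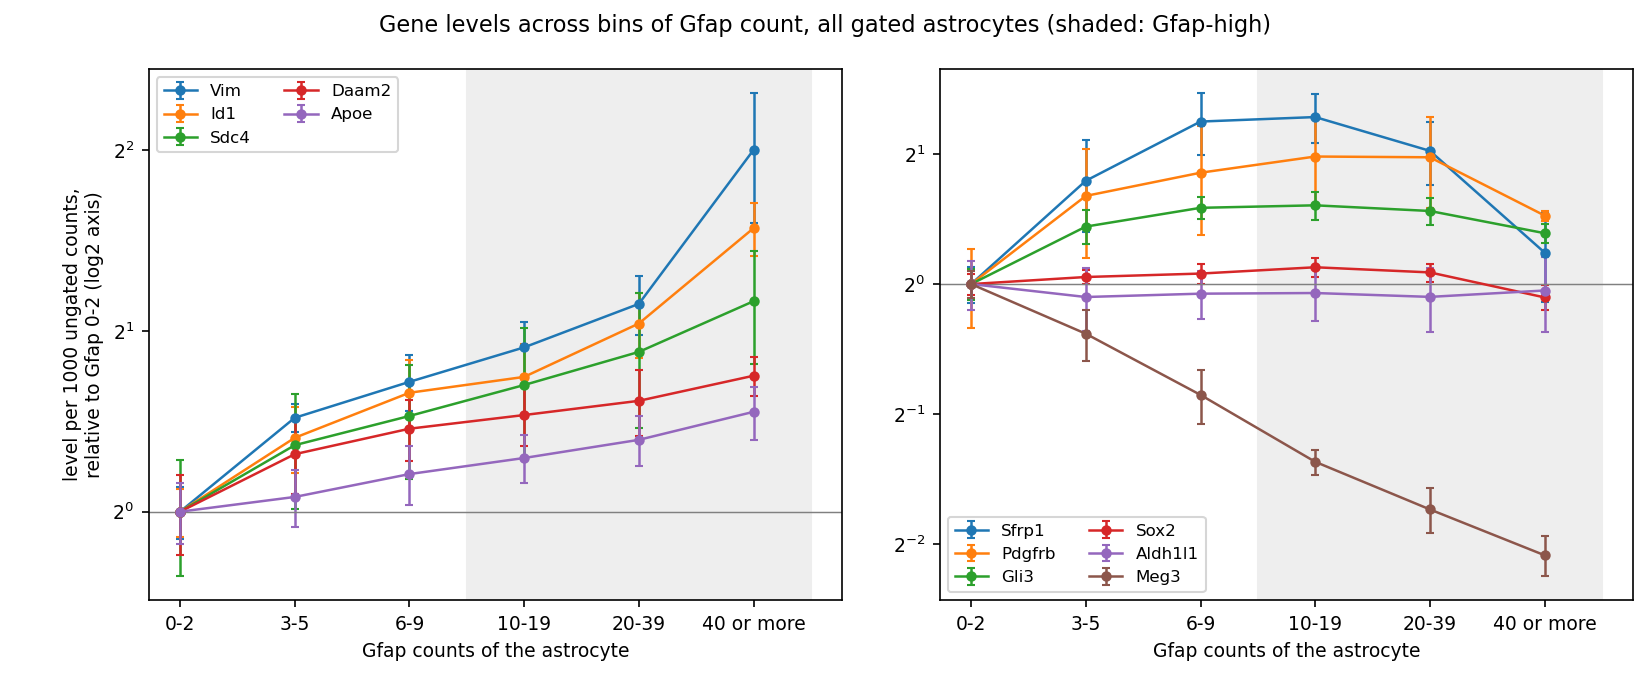
Level of 11 genes in 6 bins of Gfap count, as counts per 1000 ungated counts relative to the bin of 0 to 2 (vertical log2 axis; points are means and bars SDs over 4 coverslips); the shaded bins are Gfap-high. Vim, Id1, Sdc4, Daam2 and Apoe are higher and Meg3 is lower in each successive bin, and Sfrp1, Pdgfrb and Gli3 are highest at intermediate Gfap.

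Members at the rim and in the interior differed from each other. Rim here means near any section edge as defined above, gaps inside a section included. The 2180 members within 100 units of the edge were compared with the 14391 more than 300 units inside, on the same coverslips. By edgeR, 23 genes were higher at the edge (17.2% of 134) and 47 were lower (35.1%), 70 in all (52.2%), with a median of -0.10. The split moved with the scale: with plain totals the median was 0.08 and the counts were 36 and 27. Under TMM, totals and volume alike, 22 genes were higher and 27 lower, and the genes below are among these unless stated. Without coverslip 1, 25 genes were higher and 27 lower. The cause of this dependence on 1 coverslip was not tested.

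Wnt4, a secreted Wnt ligand, was among the genes that differed most. It stood at 0.938, 0.789, 0.687 and 0.846 counts per member at the edge and at 0.235, 0.221, 0.281 and 0.324 in the interior. The ranges did not overlap, and the log2 difference was 1.68 ± 0.13 (edgeR adjusted p = 1.4e-07). In Gfap-low cells it stood at 0.223, 0.163, 0.339 and 0.364 at the edge and at 0.357, 0.309, 0.358 and 0.491 inside, a difference of -0.28 ± 0.14 that was not called. The test of the difference between the classes gave 1.96 ± 0.19 (edgeR adjusted p = 4.7e-06). Wnt4 is itself on the list of border and epithelial markers, of which 4 genes were measured. The list had a median of 1.48 between edge and interior members, against -0.10 for all genes, and of 1.03 for the difference from Gfap-low cells, against -0.09. Mrc1, a receptor of border macrophages, stood at 0.197, 0.22, 0.248 and 0.209 counts per member at the edge and at 0.0575, 0.0555, 0.0906 and 0.0719 inside, without overlap. Mrc1 (1.73 ± 0.10), Lyve1 (1.28 ± 0.16) and Wnt6 (0.96 ± 0.22) were not above the blanks and so were not called; Wnt4 was the 1 of 4 that was. The endothelial gene Pecam1 (0.57 ± 0.11) and the microglial gene C1qa (0.37 ± 0.09) were also higher in members of the rim. These markers moved with Wnt4, Gpc3 and Adgra2, and their part in the rim values was not tested.

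Further genes were higher in members of the rim. Adgra2 differed by 1.77 ± 0.14 between edge and interior, Gpc3, a glypican, by 1.82 ± 0.20, Fzd10 by 1.18 ± 0.13, Wnt5a by 0.61 ± 0.09 and Aldh1l1 by 0.56 ± 0.09. For each of these 5 the change was larger in members than in Gfap-low cells (difference of 1.47 ± 0.21 for Adgra2, 1.27 ± 0.29 for Gpc3, 1.67 ± 0.18 for Fzd10, 0.83 ± 0.14 for Wnt5a and 0.58 ± 0.13 for Aldh1l1; edgeR adjusted p of 0.0032 or less). Fzd10 in fact fell toward the edge in Gfap-low cells, by 0.49 on the log2 scale. Tcf7 (1.44 ± 0.10) and Id1 (0.77 ± 0.09) were higher at the rim in members and in Gfap-low cells (1.22 ± 0.11 and 0.90 ± 0.10), and the difference between the classes did not pass the test (adjusted p of 0.23 and 0.47 by edgeR). Col4a6, a chain of basement membrane collagen, was higher in members of the rim by 1.18 ± 0.12.

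Interior members were higher in another set. Sfrp1 stood at 0.539, 0.564, 0.908 and 0.773 counts per member at the edge and at 0.980, 0.717, 1.22 and 1.51 inside. It was lower at the edge on each coverslip, by -0.61 ± 0.11, whereas in Gfap-low cells it was higher at the edge, by 1.13 ± 0.11. The difference between the classes was -1.73 ± 0.16 (edgeR adjusted p = 4.6e-06). Ezr took the same course, with -0.68 ± 0.08 in members, 0.44 ± 0.08 in Gfap-low cells and a difference of -1.12 ± 0.11. Sfrp5 (-1.42 ± 0.21), Wnt8b (-1.16 ± 0.21) and Thrsp, a regulator of fatty acid synthesis (-0.90 ± 0.10), were lower in members of the rim, and each differed between the classes. Sox9 (-0.69 ± 0.09), Gpc5 (-0.83 ± 0.09), Daam2 (-0.46 ± 0.08) and Sdc4 (-0.47 ± 0.08) were lower at the rim too. Of these, only Gpc5 (difference of -0.79) and Daam2 (-0.68) differed between the classes under TMM, totals and volume alike. Sdc4 was lower at the edge in Gfap-low cells as well (-0.37), and its difference between the classes was not called. Of 14 neuron genes, 6 were lower at the rim, 1 was higher and 7 were not called, beside 35.1% lower and 17.2% higher over all genes. Bcl11b (-1.71 ± 0.12) and Syt6 (-1.61 ± 0.16) were lower and Cux2 was higher (1.04 ± 0.16). In Gfap-low cells these genes moved the same way at the edge, by -0.50, -1.45 and 1.37. Bcl11b also differed between the classes (-1.21).

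In Gfap-low astrocytes 24 genes were higher at the edge (17.9%) and 18 were lower (13.4%). The change from interior to edge differed between the classes for 46 genes (34.3%), 14 upward in members (10.4%) and 32 downward (23.9%). With volume as the scale the 32 became 12, and without coverslip 1 they became 13. Of the astrocyte and progenitor lists, Vim (0.02 ± 0.12), Aldoc (-0.18 ± 0.08), Glul (0.02 ± 0.08), Gli3 (0.08 ± 0.08) and Etv4 (-0.0014 ± 0.08) were not called between edge and interior members, though Glul and Gli3 were called higher on the scale of plain totals. Apoe (-0.32 ± 0.08), Sox2 (-0.45 ± 0.07) and Emx2 (-0.41 ± 0.14) were lower at the edge; of these Sox2 was called on all 3 scales.

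Members were not alike within the interior either. Those within 20 units of a vessel-marked cell numbered 3662 and those more than 50 units away 3848. Gfap averaged 198 ± 38.6 counts per 1000 ungated counts in the first, 115 ± 22.6 in the second and 219 ± 52.7 at the rim. Aqp4, which sits in end-feet, averaged 79 ± 9.87, 56.2 ± 11.4 and 114 ± 27.1. Vim averaged 29.5 ± 4.27 near vessels, 19.4 ± 3.88 away from them and 26.4 ± 2.19 at the rim, and Id1 averaged 8.96 ± 0.764, 5.91 ± 0.812 and 14 ± 2.9. Sox9 ran the other way, at 35.1 ± 3.8 near vessels, 41.6 ± 5.64 away from them and 27.3 ± 4.54 at the rim. These levels are descriptions without a test. In Gfap-low cells Vim averaged 11.9 ± 1.88 near vessels, 9.33 ± 0.604 away from them and 10 ± 1.63 at the rim. In the same order Id1 averaged 3.87 ± 0.29, 3.35 ± 0.401 and 6.78 ± 1.17, and Aqp4 43.1 ± 7.79, 42.7 ± 8.29 and 51.2 ± 11.9. Sox9 averaged 27.7 ± 3.53, 29.6 ± 4.25 and 26.7 ± 6.9. For each of these genes the places ranked alike in both classes, again without a test.

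Within the members, 1 of 134 genes was called between female and male coverslips (0.746%), with 14 genes under an unadjusted p of 0.05. The count was 0 with DESeq2, with volume as the scale, and without coverslip 1 or coverslip 3. For the contrast of members with matched Gfap-low cells, Meg3 alone differed by sex (1 of 134 genes, 0.746%; 15 under an unadjusted p of 0.05). Its log2 difference was -1.27 on coverslip 1, -1.08 on coverslip 2, -1.64 on coverslip 3 and -1.62 on coverslip 4, with an interaction of -0.43 ± 0.07 (edgeR adjusted p = 0.034). With volume as the scale it was no longer called (edgeR adjusted p = 0.067). Female coverslips were also the more deeply counted, so sex and depth cannot be told apart with 2 coverslips each.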

How the data were processed

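Tables of MERFISH counts per segmented cell, as deposited by the authors, were used for 4 coverslips. Per the file headers they give counts of 140 genes and 40 blank barcodes, with volume and centre position as other measures per cell in unstated units. Per the labels, 10 µm sections were processed on the MERSCOPE workflow. Decoding and segmentation software is not given in the sources used here. Values were whole numbers of at least 0.

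Cells with 20 or more gene counts were kept. Counts were summed per coverslip and class and tested with edgeR 4.0.16 in R 4.3.3 (glmQLFit, TMM factors over the 134 ungated genes, coverslip as block, Benjamini-Hochberg threshold 0.05). A call also needed a count per cell above every blank on each coverslip in the higher class. Positions used exact sign-flip permutation over coverslips. Alternatives were plain totals, volume, DESeq2 1.42.0, no filter, a 1.5-fold test, other squares and gates, and leaving out each coverslip. The fit was tested on simulated data. Section edges came from gaps of 4 or more empty squares of side 50 in a cell mask, at the outline or inside a section.

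Members and gene lists were chosen with earlier results of these data known. Named genes were the 12 largest called in each direction, all measured homeostatic, filament and progenitor genes, and called genes of the Wnt, proteoglycan and scaffold lists. Ezr, Sfrp1, Thrsp, Gad2, Cspg4, and at the rim Pecam1, C1qa, Mrc1, Lyve1 and Wnt6, were named after their values were seen. Counts carry counting error beside the spread between coverslips, which may be technical. The gene called between the sexes within the members is not reported here.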

Additional observations from a re-analysis of the deposited data

Results flagged for a closer look

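For 3 genes, 1 coverslip lay far from the other 3 in the log2 ratio of matched Gfap-high over Gfap-low astrocytes. Cx3cl1, the chemokine that 1 section of each coverslip lacks, stood at -1.29 on coverslip 3 and between -0.95 and -0.90 on the others. Fzd4 stood at -0.027 on coverslip 2 and between 0.29 and 0.31 on the others. Fzd5 stood at 0.49 on coverslip 4 and between 0.27 and 0.30 on the others. Of 72 sets of 4 values examined, 3 stood out in this way, and chance gives about 1 in 20. For Meg3 the difference between the classes was itself tested between the sexes, and the female minus male value was -0.43 (edgeR adjusted p = 0.034); with volume as the scale it was not called.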

How the results depend on the processing

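For members against matched Gfap-low cells, leaving out 1 coverslip gave 33 to 40 higher and 38 to 39 lower genes; the 1.5-fold test gave 3 and 9. Signs turned for genes near 0 or whose difference moved with how cells were matched or chosen by place. Etv4 became 0.036 without low-signal squares, 0.00011 in squares of 100, 0.043 matched by depth quartile, 0.018 with Gfap at 5 or more, and -0.076 to 0.0091 without 1 coverslip. Emx2 became -0.028 with further gates and -0.012 to 0.15 without 1 coverslip, and Tcf7l2 0.0079 in squares of 100. Without matching, Aldh1l1 was -0.076 and Gpc5 -0.11. Far from marked cells, chosen after seeing the data, Adgra2 was -0.25, Etv4 0.067, Fzd10 0.036, Tcf7l2 0.15, Vim -0.0064 and Wnt3 0.034.

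Edge against interior moved with the scale, with the 1.5-fold test and without coverslip 1. In members, totals gave 36 higher and 27 lower genes, volume 29 lower, and the 1.5-fold test 9 and 8; leaving out 1 coverslip gave 23 to 25 and 27 to 42. Etv4 became 0.18 with totals, 0.046 with volume, 0.056 with DESeq2, 0.010 without low-signal squares and -0.057 to 0.067 without 1 coverslip. Vim ran from -0.060 to 0.19 without 1 coverslip, and with totals Fzd3 was 0.00073 and Sdc3 0.013. In Gfap-low cells volume gave 12 higher genes and the 1.5-fold test 4 higher and 5 lower; leaving out 1 coverslip gave 17 to 22 and 13 to 21. For the difference between classes volume gave 12 lower genes and the 1.5-fold test 6 and 7; leaving out 1 coverslip gave 13 to 17 and 13 to 30. There Apoe became 0.055 with totals, 0.10 with volume, 0.059 with DESeq2 and 0.0036 with edge under 50 and interior over 500, and Id1 0.024 with volume. Without 1 coverslip Apoe ran from -0.12 to 0.10, Id1 from -0.16 to 0.024 and Vim from -0.026 to 0.24.

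The sex call within members gave 0 genes with volume, DESeq2 and the 1.5-fold test and 0 to 1 without 1 coverslip; the interaction gave 0 with volume. The share of members was 14.9% at 20 or more Gfap counts and 26.0% to 29.2% without 1 coverslip. The difference in distance to border-marked cells became 3.01 when matched, an alternative added after seeing the data. That in kept cells within 50 units became 1.32 by means and -0.667 to 0.333 without 1 coverslip. The cause was not tested for any of these. Classes and zones of the same coverslip were paired by the coverslip block in each such fit. Depth limits genes near the blanks.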
